A study of Mus musculus with 16 samples.

Results

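Expression of 10 genes for chemokines and inflammatory cytokines (Ccl2, Ccl3, Ccl4, Ccl12, Cx3cl1, Cxcl12, Il1a, Il1b, Tnf and Il33) was followed in every cell type of the mouse hypothalamus and preoptic area (hypothalamus-POA). The genes were taken by symbol, 10 of the 28683 genes in the count tables, and every one of them had transcripts. Single cells from 16 female mice on a mixed CD-1;129P2 background had been captured by Drop-seq, a droplet method that tags each transcript with a unique molecular identifier (UMI), with 1 library per mouse. Tamoxifen, a selective estrogen receptor modulator, or vehicle (corn oil with ethanol) had been injected daily under the skin for several weeks. Oil was given to 3 wild-type and 4 Esr1cKO mice, and tamoxifen to 5 wild-type and 4 Esr1cKO mice. Esr1cKO mice carried floxed Esr1 alleles and a bacterial artificial chromosome transgene that expresses Cre under Nkx2-1 control, so that estrogen receptor alpha was to be deleted only in cells with a history of Nkx2-1 expression. Wild-type mice were littermates without Cre.

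Chemokines are small secreted proteins that steer the movement of leukocytes through G protein-coupled receptors, and in the brain they also carry signals between neurons, glia and vessels. Ccl2 and Ccl12 act on Ccr2 of monocytes, Ccl3 and Ccl4 attract macrophages and lymphocytes, Cxcl12 acts on Cxcr4 and is scavenged by Ackr3, and Cx3cl1 (fractalkine) is a membrane-bound chemokine whose receptor Cx3cr1 marks microglia. Il1a, Il1b and Tnf start inflammatory signalling through NF-kappa B, and Il33 is a nuclear alarmin of the same interleukin family as Il1a and Il1b that acts on Il1rl1 once it is released.

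The 55675 cells kept (1746 to 5568 per mouse, with a median of 563 to 819 UMIs per cell) fell into 9 clusters, and each expressed 9 or more of the 10 or 11 markers of 1 cell type at a higher level than the rest (9 of 10 for polydendrocytes, whose other listed marker, Lhfpl3, is not in the tables used here). They are called by the type that their markers name, in the sense of "microglia-like" and so on: 5394 microglia, 7196 endothelial cells, 9142 neurons, 9220 oligodendrocytes, 13559 astrocytes, 4452 polydendrocytes, 1171 fibroblasts, 3185 ependymal and 2356 mural cells. None of the 10 genes was used to form the clusters. The fibroblast class was mixed: a finer clustering set apart cells that are left unnamed, described with Il33 below. Levels given for the whole class average over both parts. Replicate 3 of the wild-type oil group and replicate 3 of the Esr1cKO tamoxifen group stood apart from the other 14 libraries: their tables held only barcodes with at least 100 genes, against 20 genes elsewhere. In addition, 520 cell barcodes occurred in more than 1 library, and 295 of them occurred in all of wild-type tamoxifen replicates 4 and 5, Esr1cKO oil replicate 4 and Esr1cKO tamoxifen replicate 4. In these 4 libraries, cells with a barcode shared with any other library made up 7.45% to 11.1% of the cells. For each pair of the 4, the log UMI counts of the barcodes they shared correlated with a Pearson r of 0.969 to 0.994. The cause of this sharing was not tested. Leaving the cells with shared barcodes out changed no call of a member between groups or cell types. Esr1 in neurons stood at 60.1 ± 23.0 CPM in wild-type oil, 66.3 ± 7.72 in wild-type tamoxifen, 48.6 ± 7.77 in Esr1cKO oil and 53.1 ± 26.2 in Esr1cKO tamoxifen mice, with overlapping ranges. CPM are UMIs per 1000000 UMIs of the cell type, and because Drop-seq reads the 3′ end, which can lie outside the deleted part of Esr1, these values check neither the labels nor the deletion.

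Most of the 10 genes were highest in the microglia class, which also held perivascular macrophages and other leukocytes. Between 93.2% (Ccl2) and 97.2% (Tnf) of all UMIs of Ccl2, Ccl3, Ccl4, Ccl12, Il1a, Il1b and Tnf came from this class, which held 5394 of the 55675 cells. A finer clustering left 4623 of them in a microglial cluster, which held 41.2% of the Ccl2 UMIs, 59.1% of Ccl12, 71.4% of Il1b and 81.4% to 95.8% of Ccl3, Ccl4, Tnf and Il1a. The macrophage-like and other leukocyte cells held 52.0% of the Ccl2 UMIs. The mean level in microglia was 1508 ± 402 CPM for Ccl4, 826 ± 210 for Ccl12, 768 ± 278 for Ccl3, 596 ± 104 for Il1a, 492 ± 170 for Ccl2, 356 ± 170 for Il1b and 230 ± 71.3 for Tnf (SD, n = 16 mice). In each of the other 8 cell types the mean of each gene stayed under 30 CPM, and microglia exceeded the next cell type in 16 of 16 mice (exact sign-flip permutation test over mice, two-sided, adjusted over 80 neighbours in the order, adjusted p = 0.000203, from the smallest p that 16 mice allow, 3.05e-05). Cxcl12, Cx3cl1 and Il33 were each led by another cell type, as described further on.

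**Figure D1:**
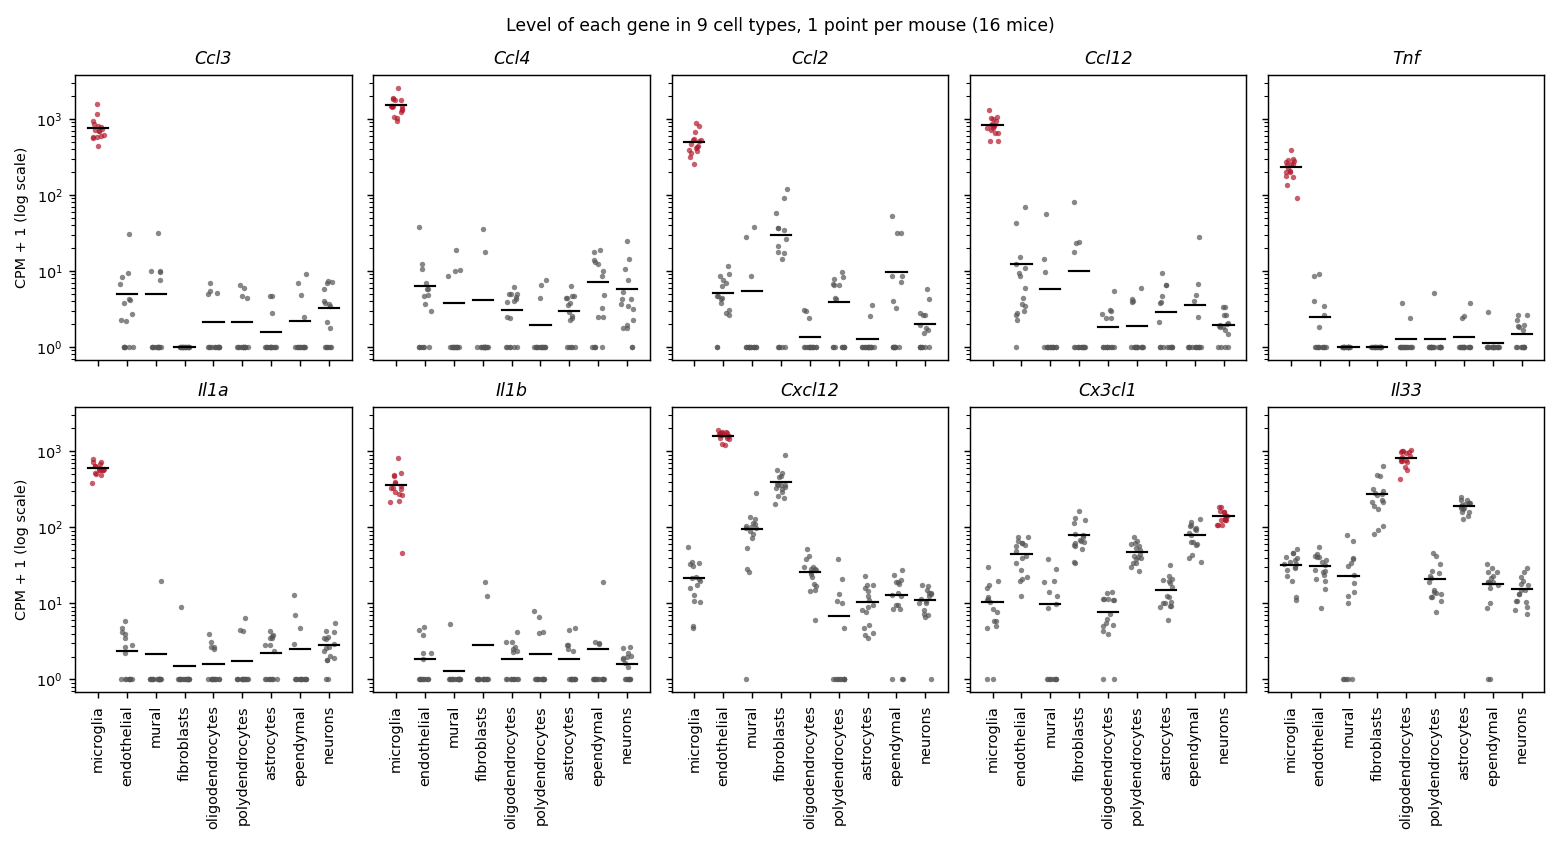
CPM plus 1 of each gene (log axis) in the 9 cell types, with 1 point per mouse (16 mice), a bar at the mean and the leading cell type in red. Ccl3, Ccl4, Ccl2, Ccl12, Tnf, Il1a and Il1b were high in microglia and near 0 elsewhere, whereas Cx3cl1 and Il33 extended over several cell types.

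In a test of each cell type against all other cells of the same mouse (edgeR quasi-likelihood on summed counts, adjusted over all genes), all 10 genes were higher in their leading cell type. The leading cell type was the one with the most UMIs of the gene in these same counts, so this direction was largely set by the choice. The shares that follow are for any gene in a given cell type, not for genes each taken in their own leading type. Among all genes tested, 30.2% were called higher in microglia, 40.4% in neurons, 36.2% in endothelial cells and 32.8% in oligodendrocytes. The log2 difference from the other cells was 9.20 (95% interval 8.86 to 9.54) for Tnf, 9.17 (8.93 to 9.41) for Ccl4, 9.05 (8.79 to 9.30) for Il1a, 9.02 (8.74 to 9.30) for Il1b, 8.98 (8.71 to 9.25) for Ccl3, 8.76 (8.48 to 9.05) for Ccl12 and 7.94 (7.69 to 8.20) for Ccl2. The median gene had a log2 difference of -0.20 in microglia. The values for Ccl2, Ccl12 and Il1b depended on how finely the cells were divided. When a finer clustering placed 775 macrophage-like and other leukocyte cells outside microglia, the log2 difference fell to 4.00 for Ccl2, 5.00 for Ccl12 and 5.80 for Il1b.

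Each member was detected in a minority of microglia, which at this depth does not limit the share of cells that express it. A Ccl4 UMI was found in 32.5% of microglia, Il1a in 25.2%, Ccl3 in 22.6%, Ccl12 in 20.8%, Ccl2 in 13.1%, Il1b in 9.51% and Tnf in 9.10%, at a median depth of 615 UMIs. Neurons, which should lack Ccl4, had a Ccl4 UMI in 0.383% of cells at a median depth of 1489 UMIs. With each cell thinned to 500 UMIs, which left 3469 microglia, the shares were 32.1% for Ccl4, 22.1% for Il1a and 21.4% for Ccl3, and none of the 7 genes was found in 36.6% of cells. Only 0.0577% of the thinned cells (2 of 3469) held all 7.

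Outside the microglia class, Ccl2 was highest in fibroblasts, at 28.9 ± 34.1 CPM (39 UMIs, 0 in 5 of 16 libraries). This was not above all other cells together (log2 difference -0.34, 95% interval -0.89 to 0.22), but those cells included microglia, which held most Ccl2 UMIs. Fibroblasts were not tested against the non-microglial cells alone. Astrocytes, oligodendrocytes and neurons had means of 0.25, 0.35 and 0.998 CPM. Of the other microglial members fibroblasts held 8 UMIs of Ccl12, 5 of Ccl4, 2 of Il1b and 1 of Il1a, and none of Ccl3 or Tnf. Ccl7, another ligand of Ccr2, stood at 29.9 ± 43.5 CPM in fibroblasts. Ependymal cells followed with 8.67 ± 15.2 CPM of Ccl2, and the difference between fibroblasts and ependymal cells did not pass correction (exact sign-flip permutation test over 16 mice, two-sided, adjusted p = 0.0896, higher in 9 of 16).

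Of the 7 genes highest in microglia, 6 lie near another member in the genome, and Tnf lies alone. On chromosome 11 (GRCm38), Ccl2 (chr11:82035571-82037453) and Ccl12 (chr11:82101845-82103400) lie 64391 bases apart on the plus strand. Ccl3 (chr11:83647844-83649355, minus strand) and Ccl4 (chr11:83662584-83664683, plus strand) lie 13228 bases apart. Il1a (chr2:129299610-129309972) and Il1b (chr2:129364570-129371139) lie 54597 bases apart on the minus strand of chromosome 2, and Tnf is at chr17:35199381-35202007. No stretch of 25 bases was shared between the annotated transcripts of any 2 of the 10 genes, so a read of that length would not fit a pair of them equally.

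The bases just before the transcription start show what several of these genes have in common. For 8 of the 10 genes, 9 promoter windows were found in RefSeq (GRCm38.p6), with 2 starts for Il33, and the 60 bases before the start are given 5′ to 3′ on the strand of the gene. They cover chr11:82101785-82101844 for Ccl12, chr11:83649379-83649438 (minus) for Ccl3, chr2:129309973-129310032 (minus) for Il1a, chr2:129371140-129371199 (minus) for Il1b, chr17:35202008-35202067 (minus) for Tnf and chr19:29945730-29945789 for the downstream start of Il33. Capitals mark TATAAA, the TATA box.
Ccl12: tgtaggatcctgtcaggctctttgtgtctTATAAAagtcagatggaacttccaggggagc
Ccl3: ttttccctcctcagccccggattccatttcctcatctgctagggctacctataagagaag
Il1a: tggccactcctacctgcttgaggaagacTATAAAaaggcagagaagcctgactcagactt
Il1b: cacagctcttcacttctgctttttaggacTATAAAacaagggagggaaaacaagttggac
Tnf: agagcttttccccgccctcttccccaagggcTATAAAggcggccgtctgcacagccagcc
Il33, downstream start: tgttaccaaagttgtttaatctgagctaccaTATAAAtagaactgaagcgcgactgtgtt
TATAAA on the strand of the gene began 31 bases before the start in Ccl12 and Il1b, 32 in Il1a, and 29 in Tnf and the downstream start of Il33. It was absent at that distance from Ccl3, Cxcl12, Cx3cl1 and the upstream start of Il33. In Cx3cl1 it began 6 bases before the start, and at the upstream start of Il33 203 bases before. Only exact TATAAA before the RefSeq start was counted. For Ccl3 that start lies upstream of the gene's 5′ end given above (chr11:83649355), and the bases between them were not searched. For Cx3cl1 it lies downstream of the annotated 5′ end of the gene (chr8:94772009), and distances were not counted from that end. Of 32851 mouse promoter windows, 603 (1.84%) held TATAAA beginning 35 to 21 bases before the start. The NF-kappa B motif (3 G, any 5 bases, then 2 C), searched on both strands of 250 bases, matched in Tnf (194 bases before the start) and Cxcl12 (36 bases before), and 45.8% of all windows hold it. The AP-1 motif TGANTCA matched in Il1a 12 bases before the start, and 6.75% of all windows hold it.

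Microglia were clustered again, without the members, to see which cells carried these genes. The 294 cells led by Fcna, Lyve1, Mrc1 and Cd163 (9 of 9 markers of perivascular macrophages) had 3207 CPM of Ccl2 and 3121 CPM of Ccl12, pooled over 16 libraries, and gave 41.5% of the microglial Ccl2 UMIs. Il1a and Tnf were low in the same cells, at 43.5 and 31.6 CPM. A cluster of 229 cells led by class II histocompatibility genes and Ccr2 had 2715 CPM of Ccl12, 1729 CPM of Ccl2 and the highest level of Il1b, at 1715 CPM. The 2 monocyte-attracting chemokines were thus highest in macrophage-like and class II cells rather than in the clusters that held most microglia.

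The other genes had a different order over the clusters. A small cluster of 116 cells led by Spp1, Lpl and Mmp12, genes known from phagocytic microglia, had the highest level of Ccl4 (3946 CPM), Ccl3 (2046 CPM) and Tnf (792 CPM), with 1623 CPM of Il1b and only 115 CPM of Ccl2. Il1a was highest, at 924 CPM, in 2069 cells led by Icam1, Ifrd1 and Dnajb1, which gave 71.1% of its microglial UMIs, and a cluster of 62 cycling cells (Mki67, Top2a) was close behind at 918 CPM. The largest cluster, 2144 cells with a median of 466 UMIs, had lower values of all 7 genes than the 2069 cells, for example 313 CPM of Il1a and 50 CPM of Tnf. Cells with T lymphocyte genes (136 cells) had 0 UMIs of Ccl2, Ccl12 and Il1b. A cluster of 80 cells with S100a8 and S100a9, genes of neutrophils, had 631 CPM of Il1b and 59 CPM of Ccl3.

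**Figure D2:**
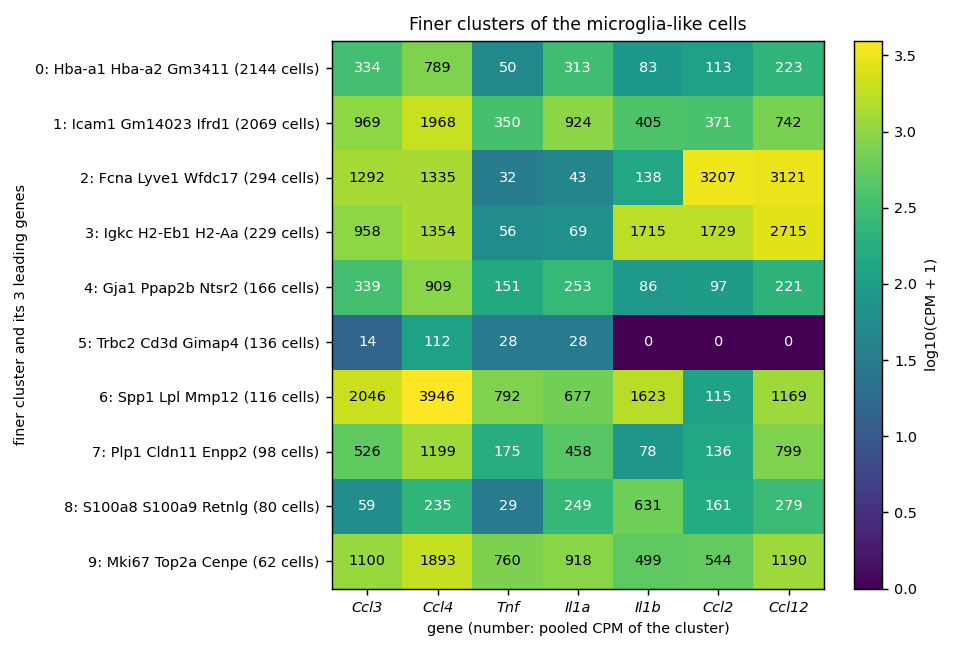
Pooled CPM of the 7 microglial genes in 10 finer clusters of the microglia-like cells, each named by its 3 leading genes and number of cells, with colour on a log10 scale. Ccl2 and Ccl12 were highest in cluster 2 (Fcna, Lyve1), Ccl3, Ccl4 and Tnf in cluster 6 (Spp1, Lpl), and Il1a in cluster 1.

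Within single cells, some pairs of members were found together more often than others. In microglia thinned to 500 UMIs, Ccl4 was found in 64.3% of cells with Ccl3 and in 23.3% of cells without it. Ccl12 was found in 43.5% of cells with Ccl2 and in 15.4% of cells without it. Il1b was found in 14.6% of cells with Il1a and 8.06% of cells without. These shares are over the whole microglia class, with its macrophage-like and class II cells, where Ccl2 and Ccl12 were both high. The pairs were not computed within the finer clusters, and the part of this mixture was not tested. Il1a was as frequent in cells with Ccl2 (22.4%) as in cells without it (22%), and Tnf was found in 15.6% of cells with Ccl3 against 5.87% of the rest. Cells positive for a gene were somewhat deeper before thinning (median 849.5 against 799 UMIs for Ccl3).

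The 2178 microglia with a Ccl3 or Ccl4 UMI also carried more of other members and their kin. Their Ccl2 level was 797 CPM against 213 CPM in the other 3216 microglia, and their Tnf level 364 against 108 CPM, both higher in 16 of 16 libraries. The genes with the largest ratio were Olr1, Bmp2 and Cxcl1 (log2 2.68, 2.41 and 2.17), of which Bmp2 and Cxcl1 were higher in 16 of 16 libraries and Olr1 in 12. The list went on with Cxcl2, Edn1, Ccl7, Ckap2l and Lpl. The median depth of the 2178 cells was 748.5 UMIs, against 535.5 in the other cells. Neither the part of depth in these ratios nor that of the macrophage-like and other leukocyte cells in the class was tested.

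Across mice, Ccl3 and Ccl4 in microglia rose and fell together, with a Pearson r of 0.879 (permutation p = 1e-05, the smallest that 100000 permutations can give, adjusted p = 0.00031) and a Spearman rho of 0.885 (permutation p = 2e-05, adjusted p = 0.00062) over 16 mice. Without the 2 mice farthest from the median Ccl3 level r was 0.779, and without the 2 libraries that stand apart r was 0.785 (adjusted permutation p = 0.0217). This was 1 of 31 relations computed. Both values share the library and its total, and the 4 libraries that share barcodes may not be independent. Among the 3616 genes with at least 50 CPM in microglia, Ccl4 was the gene whose rank over mice was most like that of Ccl3, and the reverse also held (rho = 0.885). By the same measure the gene most like Ccl2 was Med21 (rho = 0.83), Lgals1 for Ccl12 (0.794), Gadd45b and Marcksl1 for Il1a (0.832) and Cybb for Il1b (0.80), given as a description with no test.

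Tnf followed the immediate early genes, which are induced within minutes of a stimulus or of tissue handling. Among the members in microglia its level alone correlated past the threshold with the summed CPM of 26 immediate early and stress genes by Pearson's measure (r = 0.732, permutation p = 0.00079, adjusted p = 0.0122), whereas the rank correlation did not pass (rho = 0.65, permutation p = 0.0079, adjusted p = 0.0612). Without the 2 mice farthest from the median r was 0.583, and without the 2 libraries that stand apart r was 0.683 and no longer passed (adjusted permutation p = 0.0832). Jun, itself among the 26 genes, was the gene most like Tnf over the 16 mice (rho = 0.75), so this is not a separate observation. Il33 in oligodendrocytes went the opposite way with the same genes in oligodendrocytes, by rank alone (rho = -0.75, permutation p = 0.0011, adjusted p = 0.017), while Pearson's r did not pass (r = -0.54, permutation p = 0.0355, adjusted p = 0.183). No other relation passed. Without the cells of shared barcodes, 2 more rank correlations passed, that of Tnf with the early genes (rho = 0.671, adjusted permutation p = 0.0448) and that of Ccl2 with Ccl12 (rho = 0.679, adjusted permutation p = 0.0448, against rho = 0.674 and 0.0548 with them).

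**Figure D3:**
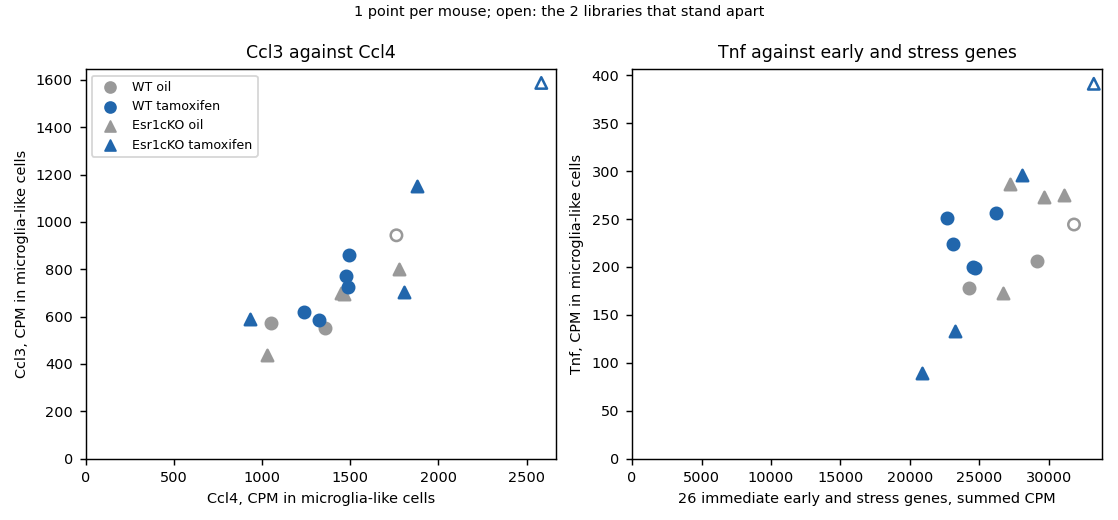
CPM of Ccl3 against Ccl4 in microglia (left) and of Tnf against the summed CPM of 26 immediate early and stress genes in microglia (right), with 1 point per mouse and open symbols for the 2 libraries that stand apart. Ccl3 and Ccl4 followed one another (r = 0.879), and Tnf followed the early genes less closely (r = 0.732).

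Cxcl12, which holds leukocytes at the brain endothelium and guides migrating cells, was endothelial. Endothelial cells had 1612 ± 194 CPM (SD, n = 16) and 90.9% of its UMIs, with a log2 difference of 6.21 (95% interval 6.03 to 6.40) from the other cells, and 64.5% of them held a UMI. Fibroblasts came next at 395 ± 165 CPM (log2 difference 0.75, 0.50 to 0.99), and mural cells at 95 ± 63.8 CPM. Each of these 2 steps held in 16 of 16 mice (exact sign-flip permutation test, two-sided, adjusted p = 0.000203). Among finer clusters, 5103 endothelial cells had 2042 CPM, whereas 1650 cells with markers of both endothelial and mural cells had 1145 CPM. Fibroblasts led by Dcn and Igf2 (728 cells) had 711 CPM. Oligodendrocytes and microglia, at 25.3 ± 11.4 and 20.8 ± 13.2 CPM, could not be told apart (adjusted p = 0.832, same permutation test). Over mice, Rpl7l1 had the rank order most like that of Cxcl12 among 4080 endothelial genes (rho = 0.747).

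Cx3cl1 was highest in neurons but the least restricted of the 10 genes. Neurons had 139 ± 25.1 CPM and 65.8% of the UMIs (log2 difference 2.10, 95% interval 1.94 to 2.25). Ependymal cells (78.6 ± 28.7 CPM) and fibroblasts (78.2 ± 36.3 CPM) did not differ beyond their spread (exact sign-flip permutation test, adjusted p = 1), nor did polydendrocytes (46.2 ± 13.7) and endothelial cells (44.2 ± 20.7; adjusted p = 1). Astrocytes, microglia, mural cells and oligodendrocytes had 14 CPM or less on average. A UMI was found in 21.5% of neurons, but in 6.79% of neurons and 4.28% of ependymal cells once cells were thinned to 500 UMIs. When neurons were clustered again, pooled Cx3cl1 ranged from 23.7 CPM (1 UMI, 49 cells led by Ndnf and Reln) to 556 CPM (115 UMIs, 393 shallow cells led by Pmch and Crh). It was 410 CPM in 243 cells led by Shox2 and Tcf7l2, 234 CPM in 313 cells led by Crym, Nrgn and Neurod2, and 162 CPM in 167 cells led by Crabp1 and Pomc. Its lower values in deep clusters included 95.3 CPM in cells led by Oxt and Avp and 79.3 CPM in cells led by Agrp and Npy. Igsf8, Itm2c and Pnck had the rank order over mice most like that of Cx3cl1 among 4553 neuronal genes (rho = 0.856).

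Il33 was mainly oligodendroglial. Oligodendrocytes had 816 ± 175 CPM, 73.3% of the UMIs and a log2 difference of 4.37 (95% interval 4.19 to 4.56), with a UMI in 41.6% of cells. Fibroblasts (271 ± 153 CPM) and astrocytes (189 ± 33.7 CPM) were also above the other cells (log2 difference 0.63, 0.34 to 0.92, and 0.40, 0.24 to 0.57). They were not distinguishable from one another (exact sign-flip permutation test, two-sided, adjusted p = 0.3, higher in fibroblasts in 12 of 16 mice). That test took the fibroblast class whole, although its parts, given below, had 430 and 56.8 CPM, and it compares neither part alone with astrocytes. Astrocytes exceeded microglia (31.3 ± 11.8 CPM) in 16 of 16 mice. Between the 2 large oligodendrocyte clusters, the one led by Car2 and Opalin (5113 cells) had 1009 CPM and the one led by Klk6 and Mog (4131 cells) had 764 CPM. Within the fibroblast class, cells led by Dcn and Igf2 had 430 CPM. The other 442 cells, led by Bpifa1 and Tshb, a hormone gene of pituitary thyrotrophs, had 56.8 CPM, and as only 5 of 10 fibroblast markers were higher in them they are left unnamed. Polydendrocytes, the oligodendrocyte precursors, had 19.9 CPM on average. Desi1 (rho = 0.909) and Arsg (rho = 0.90) were most like Il33 over mice among 3568 oligodendrocyte genes.

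The receptors lay partly in the same cells and partly in others. Of 12 receptor genes, 8 were tested in microglia, 6 of them were called higher there and 2 lower (median log2 difference 5.15, against -0.20 over all genes). Over all genes 30.2% were called higher in microglia. In endothelial cells 3 of 6 receptor genes tested were called higher, in astrocytes, mural cells and fibroblasts 2 of 6 each, and in neurons 0 of 6. A gene could pass the filter on low counts through its level in the tested cell type alone. The counts and the median thus rest partly on genes that entered because they were high there. Cx3cr1 reached 2530 ± 290 CPM in microglia, so the receptor of Cx3cl1 stood in microglia while its ligand stood in neurons. Ccr1 (76.4 ± 28.4 CPM) and Ccr2 (30.2 ± 14 CPM) were lower. Ackr3 was highest in mural cells (304 ± 121 CPM) and endothelial cells (185 ± 33.3 CPM), and Cxcr4 did not exceed 47.5 ± 17.3 CPM in any cell type (ependymal cells). Il1r1 was highest in endothelial cells at 61.6 ± 23.7 CPM, its partner Il1rap in oligodendrocytes at 271 ± 40.2 CPM, and the Il33 receptor Il1rl1 stayed at or under 7.99 ± 6.58 CPM.

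Many genes that process these cytokines or restrain them were higher in microglia than in the other cells, although not restricted to them. Of 8 release and processing genes 7 were tested and 7 were called higher in microglia, and of 10 antagonist and feedback genes 6 were tested and 6 were called higher, with median log2 differences of 5.19 and 4.53 (30.2% of all genes were called higher there). As for the receptors, a gene could enter these and the following tests through its level in the tested cell type alone. Microglia gave 96.3% of the UMIs of Ctss but 20.2% of those of Adam17, and 45.1% of those of Nfkbia and 41.8% of those of Zfp36. Nlrp3, the inflammasome sensor, had 461 ± 169 CPM, and Casp1, which cleaves the Il1b precursor, had 53.2 ± 22.2 CPM. Nfkbia, the inhibitor of NF-kappa B, had 2892 ± 709 CPM, and Tnfaip3 had 456 ± 91.7 CPM, while the antagonist Il1rn had only 11.1 ± 10.9 CPM. Of 13 NF-kappa B and adaptor genes, 10 of 12 tested were higher in microglia and 9 of 12 in endothelial cells, where 36.2% of all genes were called higher. Of 26 immediate early and stress genes, 24 of 25 tested were higher in microglia and 23 of 25 in endothelial cells. The same held for 22 of 25 in fibroblasts, 20 of 25 in mural and 15 of 25 in ependymal cells. Over all genes, 1770 of 11569 were called higher in fibroblasts, 1959 of 11420 in mural and 3731 of 12377 in ependymal cells. In polydendrocytes 8 of 24 listed genes tested were higher, in neurons and oligodendrocytes 2 of 25 each, and in astrocytes 0 of 25. Among 25 other chemokines, 8 of 11 tested were higher in microglia, led by Cxcl2 (500 ± 259 CPM), whereas Cxcl14 was highest in astrocytes (427 ± 80.0 CPM) and Ccl27a in neurons (141 ± 19.4 CPM). Of 18 other cytokines, 7 of 12 tested were higher in microglia and 8 of 9 in endothelial cells, with median log2 differences of 0.997 and 1.52.

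The study asked what tamoxifen does to hypothalamic cells and whether estrogen receptor alpha is needed, so each member was compared between groups of mice within each cell type. A member entered a test where its counts passed a filter on low values, which held for 23 of the 90 pairs of gene and cell type and for each gene in its leading cell type. In wild-type mice, tamoxifen against oil gave 0 calls among 23 tests (edgeR quasi-likelihood, adjusted over all genes of a cell type), and 0 at an unadjusted p under 0.05. In Esr1cKO mice there were 0 calls, with 2 tests at an unadjusted p under 0.05. The difference between genotypes in the response to tamoxifen gave 0 calls and 1 test under 0.05, that of Ccl4 in neurons, of which 0.383% held a Ccl4 UMI (log2 2.84, adjusted p = 0.932). DESeq2 also called 0 members in each. The share of all 65445 gene and cell type pairs called was 0.0% in each of these comparisons, with 2129, 2354 and 3181 pairs at an unadjusted p under 0.05.

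No member was called between Esr1cKO and wild-type mice either. Under oil, 0 of 23 tests were called and 0 had an unadjusted p under 0.05, against 0.0% called and 3141 pairs under 0.05 among all genes. Under tamoxifen 0 of 23 were called and 1 had an unadjusted p under 0.05, against 0.00153% called (1 pair, Nov in neurons) and 2089 under 0.05. That 1 test was Il33 in endothelial cells (log2 difference 0.97, Esr1cKO minus wild-type, unadjusted p = 0.0151, adjusted p = 0.9998 with edgeR), where its mean level was 30.1 CPM. For all 10 genes the ranges of the groups compared overlapped in the leading cell type. The share of all genes whose ranges overlap was not computed. With so few mice, this overlap does not show that the groups are alike.

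In wild-type mice the estimated fold changes in the leading cell types were small, but their intervals did not exclude larger changes in either direction. The widest interval in a leading cell type was that of Il1b in microglia (-0.77 to 1.09). The log2 change with tamoxifen ranged from -0.22 (Il1a) to 0.23 (Ccl2) in the leading cell types, and the 95% intervals together ran from -0.77 to 1.09. The narrowest were those of Cxcl12 in endothelial cells (-0.02, interval -0.37 to 0.33) and Cx3cl1 in neurons (-0.13, interval -0.54 to 0.28). Ccl4 in microglia had 1360, 1049 and 1763 CPM in the 3 wild-type mice given oil and 1487, 1495, 1479, 1323 and 1236 CPM in the 5 given tamoxifen. All tamoxifen mice lay within the range of the oil mice, and the log2 change was -0.02 (interval -0.56 to 0.53). Some changes outside the leading cell types were larger, though not called. In neurons they were -1.39 for Ccl4 (interval -3.46 to 0.67) and 0.96 for Il33 (interval -0.0008 to 1.92, unadjusted p = 0.0502, edgeR). For Cxcl12 in oligodendrocytes the change was 0.65 (interval -0.30 to 1.60).

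In Esr1cKO mice the largest log2 change in a leading cell type was that of Il1b, which did not pass the test. Il1b in microglia had 391, 264, 44.8 and 218 CPM in the 4 mice given oil and 485, 818, 327 and 327 CPM in the 4 given tamoxifen. The ranges overlapped through the single oil mouse at 391 CPM, and the log2 change was 1.08 (interval 0.17 to 1.98, unadjusted p = 0.0221, adjusted p = 0.97, edgeR). Over the alternatives its adjusted p ran from 0.0634 (no filter on low counts) to 1. The count behind the lowest value was 11 UMIs. The 8 neutrophil markers, of which Ly6g was at 0, had a summed level in microglia of 2734, 4647, 3332 and 23.4 CPM in the 4 Esr1cKO tamoxifen mice. Their sum was 9.66 to 198 CPM in Esr1cKO oil, 7.38 to 406 CPM in wild-type tamoxifen and 28.1 to 1739 CPM in wild-type oil. In Esr1cKO tamoxifen replicates 1 to 4, Il1b stood at 485, 818, 327 and 327 CPM beside marker sums of 2734, 4647, 3332 and 23.4 CPM. The summed level of the monocyte and dendritic cell markers was 501 to 703 CPM in Esr1cKO oil and 785 to 1071 CPM in Esr1cKO tamoxifen mice, which did not overlap. It spanned 281 to 1442 CPM in wild-type oil and 598 to 1620 CPM in wild-type tamoxifen mice. No other marker list separated the Esr1cKO groups. In wild-type mice, oil and tamoxifen were separate for the endothelial markers (128 to 216 against 241 to 509 CPM). The mural markers were separate there as well (65.6 to 75.2 against 95.9 to 146 CPM). All marker lists were compared in this way, and with so few mice some ranges separate by chance. The share to be expected was not computed. The part of any of these lists in the Il1b values was not tested. The genotype difference of the change was 0.92 (interval -0.37 to 2.20, adjusted p = 0.865, edgeR).

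Ccl3 and Ccl4 both had their highest library in the same Esr1cKO tamoxifen mouse. Ccl3 in microglia had 695, 437, 802 and 699 CPM in the 4 Esr1cKO mice given oil and 704, 1152, 1587 and 588 CPM in the 4 given tamoxifen. Of these, 1587 CPM came from replicate 3, a library that stands apart. The log2 change was 0.61 (interval 0.01 to 1.21, adjusted p = 0.97, edgeR) and 0.27 without the 2 libraries that stand apart (adjusted p = 0.952). Ccl4 had 1468, 1031, 1780 and 1450 CPM with oil and 1805, 1882, 2584 and 935 CPM with tamoxifen, so tamoxifen mice held both the highest and the lowest value, and its log2 change was 0.32 (interval -0.21 to 0.85).

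Tnf in Esr1cKO mice spread more under tamoxifen, at 296, 89.4, 391 and 134 CPM, than under oil, at 275, 173, 273 and 287 CPM. The 2 lowest and the 2 highest mice of all 8 were tamoxifen mice, and the log2 change was -0.16 (interval -0.86 to 0.53). The counts behind these values were 19 to 104 UMIs per library. For the other microglial members, group means in Esr1cKO mice given oil and tamoxifen were 411 and 547 CPM for Ccl2, 741 and 877 CPM for Ccl12, and 582 and 572 CPM for Il1a, with SDs of 67.4 to 247 CPM.

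The other members varied between mice as well. Ccl2 in microglia ranged from 389 to 525 CPM in the 3 wild-type oil mice and from 256 to 809 CPM in the 5 wild-type tamoxifen mice, and Ccl12 from 508 to 1313 and from 723 to 1030 CPM. Ccl2 was thus more spread with tamoxifen and Ccl12 with oil, and neither pair of ranges was separate.

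The members led by other cell types differed little between group means. Cxcl12 in endothelial cells had group means of 1539 to 1650 CPM, Cx3cl1 in neurons 125 to 149 CPM and Il33 in oligodendrocytes 732 to 869 CPM. Il33 varied most within the wild-type oil group, with 432, 793 and 972 CPM in its 3 mice, a range that enclosed the 4 Esr1cKO tamoxifen mice except replicate 3 at 1009 CPM. The log2 change of Il33 with tamoxifen was 0.23 (interval -0.27 to 0.73) in wild-type and -0.09 (interval -0.57 to 0.39) in Esr1cKO mice.

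**Figure D4:**
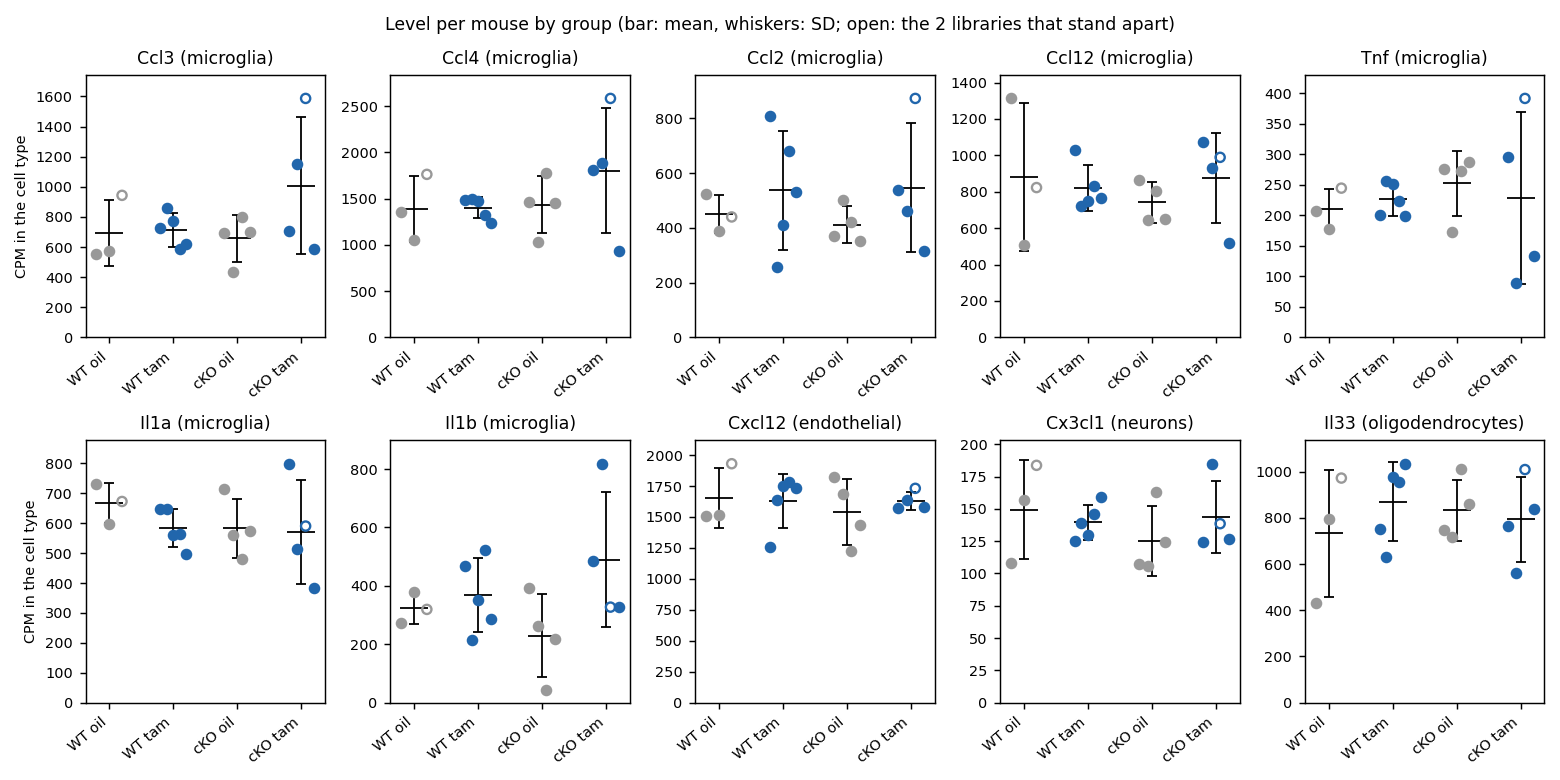
CPM of each gene in its leading cell type, with 1 point per mouse, a bar at the mean and whiskers for the SD (3 WT oil, 5 WT tamoxifen, 4 cKO oil and 4 cKO tamoxifen mice), and open symbols for the 2 libraries that stand apart. The ranges of all compared groups overlapped, which with so few mice does not show that the groups are alike. The Esr1cKO tamoxifen mice had the largest SD for each microglial gene except Ccl12.

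**Figure D5:**
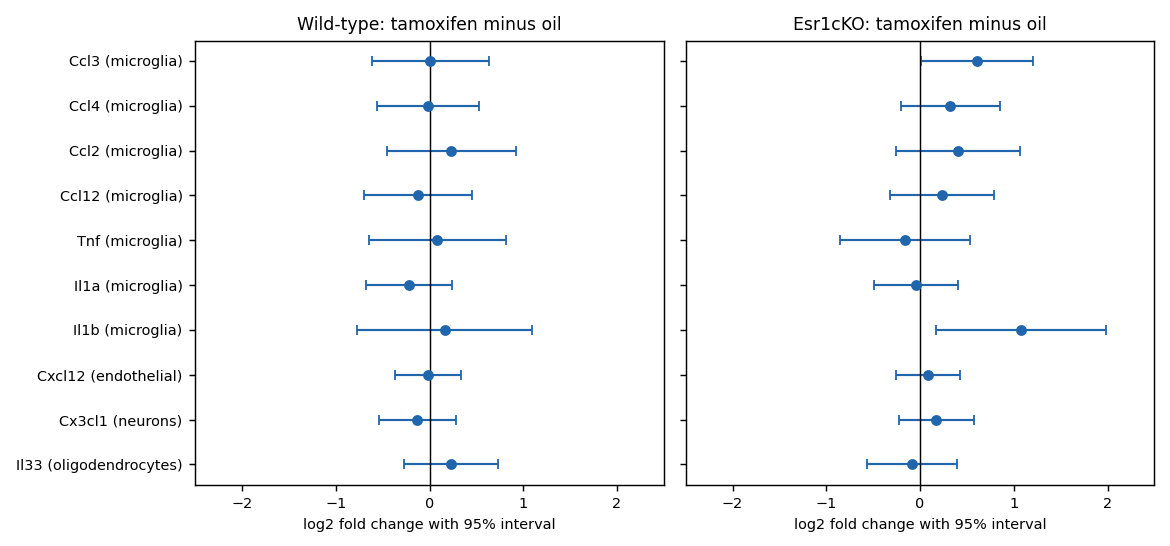
Log2 fold change of tamoxifen against oil with its 95% interval for each gene in its leading cell type, in wild-type (left) and Esr1cKO mice (right). All wild-type intervals include 0, and in Esr1cKO mice only those of Il1b and Ccl3 lie above it, before adjustment.

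No list of the wider pathway held a called gene in these comparisons. The receptors, the release and processing genes, the antagonist and feedback genes, the NF-kappa B genes, the other chemokines, the other cytokines and the immediate early and stress genes had 0 calls in either direction in each of the 5 comparisons, and their tests numbered 23 to 188 per list. Among the immediate early and stress genes, 16 of 188 tests of tamoxifen in wild-type mice had an unadjusted p under 0.05, against 2129 of 65445 over all genes. Their median log2 change was -0.20, against 0.02 over all genes. These tests were of 25 genes repeated over cell types of the same mice, so they were not independent. In Esr1cKO mice 1 of 188 had an unadjusted p under 0.05, against 2354 of 65445 over all genes, with a median log2 change of -0.08. The difference between genotypes in the response had 5 of 188, against 3181 of 65445 over all genes.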

How the data were processed

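The authors aligned Drop-seq reads with STAR 2.6 to mm10, per the submitters' notes, and deposited a table of UMI counts (genes by barcodes) for each mouse, which were used as deposited. Kept cells had over 200 but below 4000 detected genes, with less than 15% of UMIs mitochondrial, leaving 1717573 to 5457033 UMIs per library of 2634253 to 8038158. Seurat 5.3.0 joined the 4 groups by canonical correlation anchors (30 dimensions), with the libraries of a group pooled and not aligned to one another. Cells were clustered on 2000 variable genes without members or listed genes (20 components, resolution 0.05). Scrublet called 494 doublets (0.887%), which were kept in the main result. Counts were summed per mouse and cell type (at least 10 cells) and tested with edgeR 4.0.16 quasi-likelihood, with all 4 groups in 1 fit, in place of the study's test over cells. DESeq2 1.42.0 was an alternative. CPM are per 1000000 UMIs of the cell type, and relations between mice used log2 of CPM plus 1. Adjusted p-values are Benjamini-Hochberg with a threshold of 0.05. The scripts were tested on simulated data. The members and the 7 lists (112 genes, 4 listed genes absent) were chosen with earlier results of these data known. Named genes were the members, the 4 genes of a list with the most UMIs, the 5 genes most like a member over mice (at least 50 CPM), the 10 with the largest ratio in Ccl3- or Ccl4-positive cells and the leading genes of a cluster. Ccr1, Ccr2, Cxcr4, Il1r1, Il1rl1, Casp1, Il1rn and Nov were named after their values were seen. The fits without shared barcodes were added after seeing the data. Gene positions are from GENCODE vM21. The level of 1 receptor gene is not reported here. The study captured all groups in parallel, 4 mice on each of 4 days, and the day of each library is not given in the sources used here.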

Additional observations from a re-analysis of the deposited data

Results flagged for a closer look

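In 30 groups of 4 or 5 mice, each member was searched for a mouse far from the rest of its group in the leading cell type, where chance flags about 1 in 20 groups, and 2 were found. Tnf in microglia was lowest in Esr1cKO oil replicate 2, at 173 CPM against 273 to 287 CPM in the other 3 mice, a gap of 0.878 of the group's range. Cxcl12 in endothelial cells was lowest in wild-type tamoxifen replicate 1, at 1255 CPM against 1636 to 1786 CPM in the other 4 mice, a gap of 0.717 of the range. None of the 23 tests for a tamoxifen effect that differs between genotypes passed the threshold (edgeR, lowest adjusted p = 0.865).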

How the results depend on the processing

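Members called were 0 in each comparison of mice, and 10 were higher in a cell type, in every alternative run and in all 16 fits that left out 1 mouse. The number of relations between mice past the threshold by Pearson's r moved from 2 to 1 without the 2 libraries that stand apart, where Tnf with the early genes fell to r = 0.683. By rank, 2 more relations passed without the cells of shared barcodes. Several uncalled log2 changes with tamoxifen turned in direction under some settings, and the cause was not tested. They included the largest wild-type changes in a leading cell type, those of Ccl2 and Il33 (both 0.23 in the main fit). In wild-type mice Ccl2 (-0.26) and Ccl3 (-0.21) turned at resolution 0.5. With a mitochondrial share under 5% it was Ccl3 (-0.026), Ccl4 (0.15) and Tnf (-0.13), and in Esr1cKO mice Cxcl12 (-0.032) and Tnf (0.023). Without the 2 libraries it was Ccl4 (0.22), Cx3cl1 (0.084) and Cxcl12 (0.13). Without a filter on low counts it was Ccl4 (0.058) and Cxcl12 (0.017), and with only the groups compared Ccl3 (-0.00244). With cells of more than 500 genes it was Ccl4 (0.10), and in Esr1cKO mice Il1a (0.12) and Tnf (0.064). With a block of 4 library numbers it was Ccl4 (0.17) and Ccl12 (0.075). Leaving out 1 mouse, wild-type values ran from -0.14 to 0.32 for Ccl3, -0.20 to 0.22 for Ccl4, -0.41 to 0.27 for Ccl12, -0.32 to 0.093 for Cx3cl1, -0.089 to 0.13 for Cxcl12, -0.0078 to 0.29 for Il1b, -0.055 to 0.24 for Tnf and -0.048 to 0.51 for Il33. Those of Esr1cKO mice ran from -0.025 to 0.19 for Cxcl12, -0.23 to 0.11 for Il1a, -0.61 to 0.12 for Tnf and -0.25 to 0.044 for Il33. Over all genes the calls per comparison were 0 to 1, against 57 to 139 without the filter, 3 to 17 without the 2 libraries, 1 to 6 with a mitochondrial share under 5% and 0 to 3 with DESeq2. In the fits that left out 1 mouse they were 0 to 7 without Esr1cKO tamoxifen replicate 4 and 0 to 6 without wild-type oil replicate 3. They were at most 2 without any other mouse. No paired analysis was possible because no label pairs mice across groups. A block of library numbers in successive fours, of which the last holds no wild-type oil mouse, was fitted instead and changed no call of a member. With 3 to 5 mice a group and 11 to 687 UMIs of a microglial member per library, the data allow changes within the intervals given. The smallest change of a member that could be detected after adjustment was not computed. P-values measure the spread between these mice, and intervals of shares cover counting error only.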
